A study of Caenorhabditis elegans with 10 samples.

Results

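Unnamed X-linked genes are the protein-coding genes of the Caenorhabditis elegans X chromosome that carry no gene symbol beyond their sequence name, such as ZK813.1 or F07G6.8. Sequence names in the 10 count tables were matched to the Ensembl annotation of the assembly WBcel235, and genes with at least 10 reads summed over the 10 libraries were kept. This gave 1173 genes of 1320 unnamed protein-coding genes on the X chromosome, among 2453 X-linked protein-coding genes and 19969 genes of any kind with at least 10 reads. Of those left out, 47 had no read in any library and 100 had 1 to 9 reads. The summed reads were thus the measured value that chose the genes. The genes closest to that limit were 7 with exactly 10 reads, C14E2.7, K10C2.2 and F18E9.8 among them, and 8 with 9 reads, just outside, H02F09.2, C55B6.7 and C17H11.4 among them. Of the kept genes, 586 had a read in every library, 50 carry a symbol in the RefSeq gene table of the same assembly, and 272 overlap another protein-coding gene. The tables used here give sequence names but no function for nearly all of them, so they are described by their values and by the marker genes whose profiles they resemble. They were set against 5321 unnamed protein-coding genes of chromosomes II to V chosen by the same rule (1383, 1016, 1289 and 1633 on chromosomes II, III, IV and V) and against 1280 named X-linked genes.

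The study measured the RNA of whole animals of a him-5 strain, grown at 20 °C on plates with OP50 E. coli, during sexual maturation. Males and hermaphrodites were each collected as late L3 larvae (30 to 34 h after hatching), in early L4 (36 to 40 h), in late L4 (42 to 46 h) and as young adults in windows of 48 to 52 h and 54 to 58 h. Every library, male or hermaphrodite, carries the him-5 mutation, which raises the frequency of X chromosome loss in meiosis and so yields many males. There was 1 library per sex and window, 10 in all, so no sex and time was replicated and tests take their error from the spread between windows.

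Males of this species have a lone X chromosome and hermaphrodites have a pair. The dosage compensation complex, a condensin-like complex that binds the hermaphrodite X chromosomes, lowers their expression so that somatic X-linked transcripts of the sexes come closer. In the germline the X chromosome is kept largely silent by chromatin regulators, genes used in sperm are scarce on it, and it becomes active late in oocyte development.

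Reads assigned to genes ranged from 10742873 to 27907544 in males and from 8189325 to 18480591 in hermaphrodites, and the share of reads that did not align was highest in the male library of 54 to 58 h (25.4%). The markers followed the labels. The summed level of 38 sperm genes was 1116 to 7590 CPM (reads relative to the library's gene reads, TMM-scaled) in male libraries and 98.3 to 1001 CPM in hermaphrodite libraries, and that of 6 male sensory neuron genes was 7.57 to 135 CPM in male libraries and 0.343 to 1.25 CPM in hermaphrodite libraries. The 6 yolk genes summed to 5.62 to 503 CPM in male libraries and 71.0 to 42482 CPM in hermaphrodite libraries. In late L4 and in the older young adult males the yolk sum was 394 and 503 CPM, with 137 CPM between them at 48 to 52 h. In whole animals, fewer cells of a type and less RNA per cell cannot be told apart.

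A share of gene reads depends on all genes of a library. By this measure unnamed X-linked genes made up a small part, lower in young adults than in late L3 in both sexes. They held 2.01%, 1.91%, 1.69%, 1.61% and 1.64% of gene reads in males in order of time, and 1.92%, 1.91%, 1.5%, 1.17% and 1.08% in hermaphrodites. The shares of the sexes were nearly equal in the first pair of windows and lay apart in young adults, where the male share was higher. A large part of these reads came from F46H5.3, which alone held 12.4% of them. By mean level, 384 of the 1173 genes lay under 1 CPM, 350 between 1 and 5 CPM, 378 between 5 and 50 CPM and 61 at or above 50 CPM.

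Per length of exon, these genes lay below unnamed genes of chromosomes II to V in every library. The median level of the unnamed X-linked genes was 2.24, 2.36, 2.22, 1.54 and 1.48 CPM per kb in males and 1.83, 1.71, 1.49, 1.01 and 0.860 CPM per kb in hermaphrodites. The median of the unnamed genes of chromosomes II to V was 4.50, 5.80, 6.09, 5.78 and 5.80 CPM per kb in males and 2.17, 3.61, 2.95, 1.47 and 0.886 CPM per kb in hermaphrodites. The ratio of the X-linked to the chromosome II to V median therefore lay at 0.497, 0.407, 0.364, 0.267 and 0.255 in males, lower at each later window. In hermaphrodites it was 0.841, 0.474, 0.504, 0.687 and 0.970, so that at 54 to 58 h the medians nearly met. These medians rest on 1 library each and carry no test, and at 36 to 40 h the lower quartile of either group was 0 in the hermaphrodite library. Named X-linked genes were more abundant, with a median of 3.27 to 6.13 CPM per kb in males and 2.52 to 5.69 CPM per kb in hermaphrodites.

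**Figure D1:**
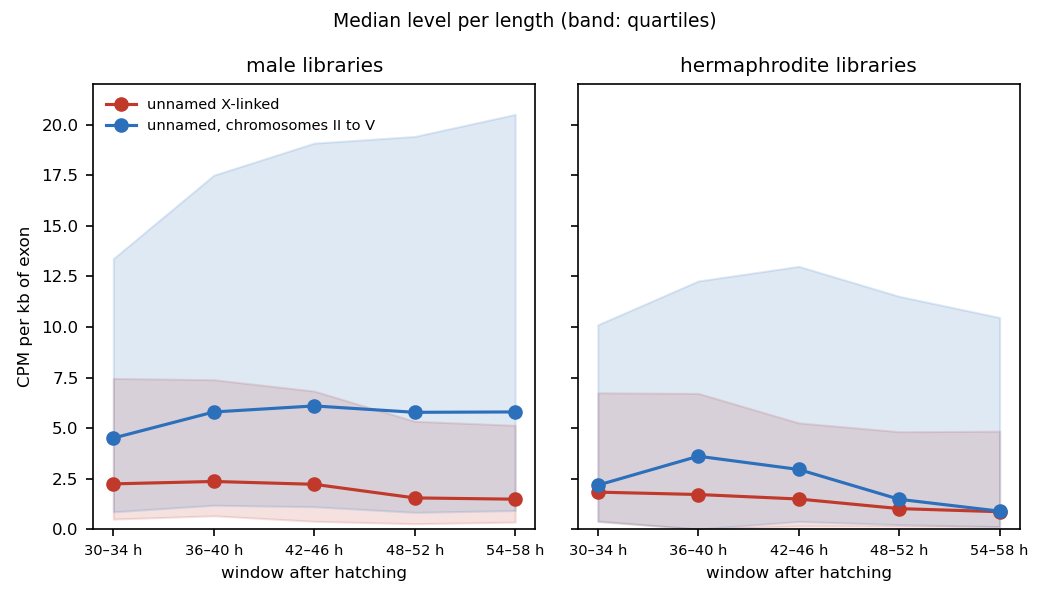
Median level per length of exon (CPM per kb, vertical axis) at each window after hatching, in male libraries (left) and hermaphrodite libraries (right), for 1173 unnamed X-linked genes and 5321 unnamed genes of chromosomes II to V. Lines join the medians of single libraries and bands span the quartiles over genes: in males the medians lie apart at every window (1.48 against 5.80 CPM per kb at 54 to 58 h), in hermaphrodites they close at 54 to 58 h (0.860 against 0.886 CPM per kb).

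The most abundant unnamed X-linked gene by mean level per length was F46H5.3 (X:7230705-7238662, minus strand), at 1371 CPM per kb. It had 2683, 2647, 1944, 2871 and 2636 CPM in males in order of time, and 2655, 1539, 1109, 1068 and 889.9 CPM in hermaphrodites. The sexes were level at 30 to 34 h and parted as the hermaphrodite value dropped, with the lowest male library still above the hermaphrodite libraries of 36 h onward. The neighbouring short genes F23A7.8 and F23A7.4 (X:16213373-16213576 and X:16212606-16212812, plus strand) came next, at 769.6 and 409.7 CPM per kb. F23A7.8 had 47.9, 69.7, 75.7, 75.9 and 99.9 CPM in males, and 116, 116, 215, 374 and 381 CPM in hermaphrodites. F23A7.4 had 42.1, 46.8, 30.8, 33.2 and 36.1 CPM in males, and 88.7, 79.9, 104, 183 and 203 CPM in hermaphrodites. For both, no male library reached the lowest hermaphrodite library. In edgeR's quasi-likelihood test over the 5 windows, F46H5.3 was higher in males (log2 0.92 ± 0.25, adjusted p = 0.0412), and F23A7.8 (log2 -1.55 ± 0.27, adjusted p = 0.0201) and F23A7.4 (log2 -1.71 ± 0.33, adjusted p = 0.0246) were lower. None of these 3 calls held when the 42 to 46 h or the 48 to 52 h libraries were left out, and that of F46H5.3 also failed without those of 36 to 40 h or 54 to 58 h. Errors after ± are approximate standard errors, and log2 values are male over hermaphrodite. F08B12.4 (234 CPM per kb) and F53A9.1 (175 CPM per kb) completed the top 5 and were not called over the 5 windows. F08B12.4 had 73.6 to 163 CPM in male libraries and 47.4 to 163 CPM in hermaphrodite libraries, and F53A9.1 had 19.7 to 91.7 CPM in male libraries and 6.89 to 52.6 CPM in hermaphrodite libraries.

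The main question put to these genes was how the male to hermaphrodite ratio at each window compared with unnamed genes elsewhere. At each window the typical unnamed X-linked gene was slightly higher in males, by less than the typical unnamed gene of chromosomes II to V. On the log2 scale with 1 CPM added to each library, the median ratio of the 1173 genes was 0.08, 0.30, 0.20, 0.23 and 0.27 in order of time. The unnamed genes of chromosomes II to V had 0.12, 0.36, 0.32, 0.37 and 0.45, the named X-linked genes 0.00, 0.19, 0.31, 0.35 and 0.33, and all 19969 genes 0.05, 0.20, 0.07, 0.02 and 0.08. The X-linked median stayed under that of chromosomes II to V with RLE factors, with library size only and without ribosomal RNA and mitochondrial genes, although library size only raised the median of all genes at 54 to 58 h to 0.23 and that of the unnamed X-linked genes to 0.42. Taken by chromosome, the X-linked median was the lowest at 36 to 40 h only: chromosome III had 0.14, 0.10 and 0.12 in the last 3 windows, and chromosome IV reached 0.69 at 54 to 58 h.

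**Figure D2:**
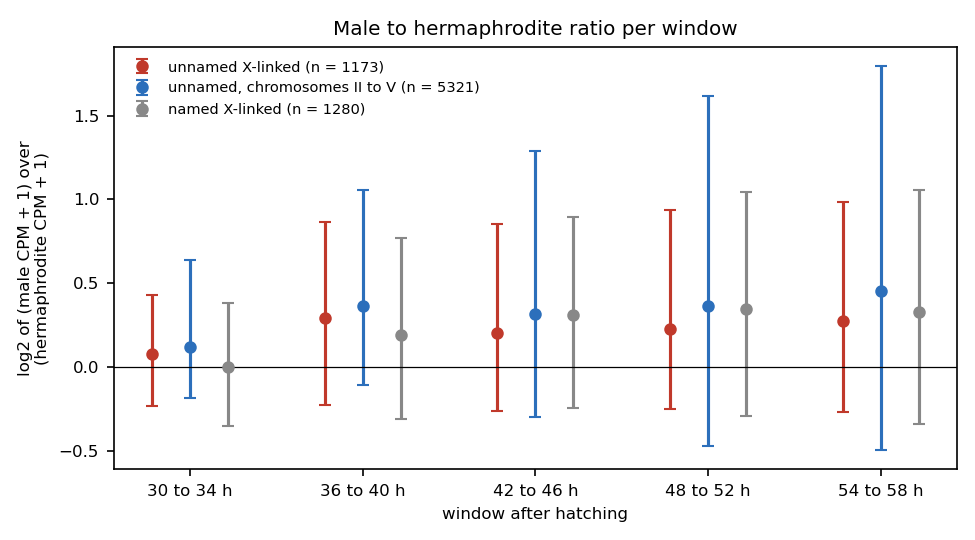
Log2 ratio of male to hermaphrodite level (1 CPM added to each) at each window after hatching. Points are medians over genes and bars span the quartiles, for 1173 unnamed X-linked genes, 5321 unnamed genes of chromosomes II to V and 1280 named X-linked genes: the medians of the unnamed groups differ by at most 0.18, while the upper quartile at 54 to 58 h is 0.98 for unnamed X-linked genes and 1.79 for unnamed genes of chromosomes II to V.

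Over all genes of each unnamed group the medians lay close, but among genes whose higher library reached 5 CPM they lay further apart in young adults. These medians were 0.10, 0.21, 0.39, 0.35 and 0.28 for unnamed X-linked genes in order of time. For unnamed genes of chromosomes II to V they were 0.14, 0.35, 0.50, 0.72 and 0.91. The spread differed as well. Among genes whose higher library reached 5 CPM, 81.1%, 71.8%, 59.8%, 41.6% and 37.1% of unnamed X-linked genes lay within 2-fold between the sexes in order of time, against 71.0%, 65.1%, 49.2%, 29.3% and 23.7% of unnamed genes of chromosomes II to V. The upper quartile of the ratio at 54 to 58 h was 0.98 for the X-linked genes and 1.79 for those of chromosomes II to V, and the lower quartiles were -0.27 and -0.49. The middle of the distribution was thus narrower on the X chromosome in young adults, which does not extend to its lower tail, counted next.

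Large differences were counted where the levels, with 1 CPM added, lay 4-fold apart or more and the higher library reached 5 CPM. The unnamed X-linked genes higher in males by this rule numbered 19, 31, 43, 57 and 60 in order of time, or 1.62%, 2.64%, 3.67%, 4.86% and 5.12% of them, where 5.17%, 4.01%, 7.6%, 12% and 13.2% of all genes with 10 reads qualified. Unnamed genes of chromosomes II to V gave 8.93%, 5.79%, 12.3%, 19.2% and 21.1%. Lower in males were 2, 12, 39, 66 and 74 unnamed X-linked genes (0.171%, 1.02%, 3.32%, 5.63% and 6.31%), where 0.18%, 0.446%, 1.35%, 3.93% and 5.67% of all genes qualified and 0.244%, 0.357%, 1.26%, 3.16% and 4.38% of unnamed genes of chromosomes II to V. Fewer X-linked genes could qualify, since 455 of 1173 had a library at 5 CPM at 54 to 58 h, against 3018 of 5321 on chromosomes II to V and 11252 of all 19969. Of those that could, 13.2% of unnamed X-linked genes, 37.2% of unnamed genes of chromosomes II to V and 23.5% of all genes were higher in males, and 16.3%, 7.72% and 10.1% were lower. Among unnamed genes of each compared chromosome, the share higher in males at 54 to 58 h was 5.12% on X, 21.3% on II, 19.7% on III, 27.9% on IV and 16.4% on V. The share lower in males was 6.31% on X, 4.99% on II, 4.92% on III, 3.80% on IV and 3.98% on V. Which direction held more unnamed X-linked genes in young adults depended on the scaling: with library size only, 67 were higher and 58 lower in males at 48 to 52 h, and 95 higher and 60 lower at 54 to 58 h.

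**Figure D3:**
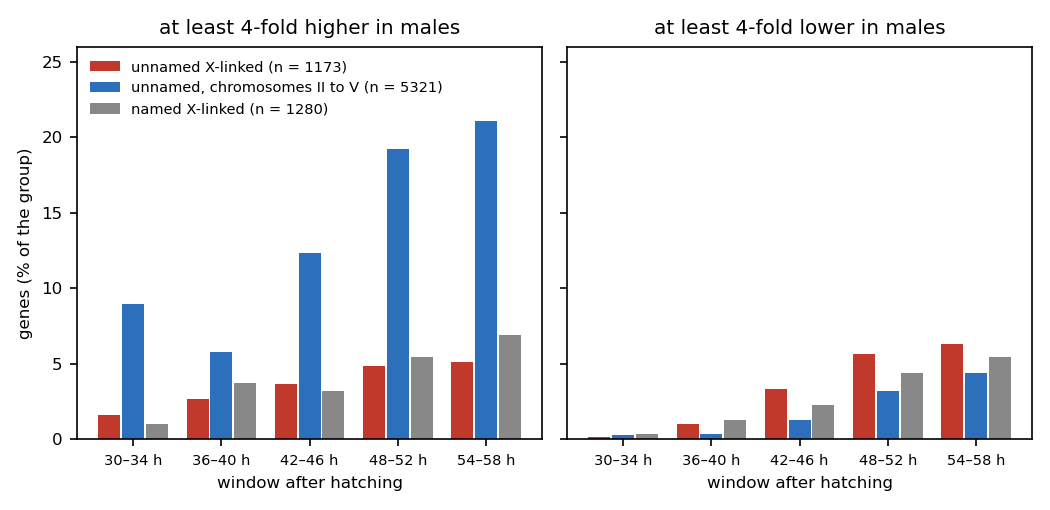
Share of genes (% of each group) at least 4-fold higher (left) or lower (right) in males at each window after hatching, for unnamed X-linked genes, unnamed genes of chromosomes II to V and named X-linked genes. Bars are counts over genes in 1 library per sex: at 54 to 58 h, 5.12% of unnamed X-linked genes against 21.1% of unnamed genes of chromosomes II to V are higher in males, and 6.31% against 4.38% are lower.

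At single windows the most extreme genes changed with age. R01E6.5 (X:13537059-13538109, plus strand) was highest in males over hermaphrodites at the first pair of windows and second to F18E9.7 in late L4. It had 176, 583, 345, 16.1 and 6.17 CPM in males and 4.07, 4.69, 2.40, 1.56 and 1.28 CPM in hermaphrodites. Its male level peaked in early L4 and was lower after it, while each hermaphrodite library stayed under each male one. The test over the 5 windows called it higher in males (log2 5.13 ± 0.87, edgeR adjusted p = 0.0198), but not once the late L4 or the 48 to 52 h libraries were removed. At 54 to 58 h the leading genes were F18E9.7 and C33G3.5, with log2 ratios on CPM + 1 of 7.63 and 6.70.

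Furthest below the hermaphrodite level at 30 to 34 h were C10A4.9 and H02F09.3, and at 36 to 40 h C14F11.4, given below, and K07E3.9. C10A4.9 had 0.174, 0, 0, 0 and 0 CPM in males and 5.32, 13.5, 4.12, 0.250 and 0.405 CPM in hermaphrodites. It rested on 2 male and 215 hermaphrodite reads, a hermaphrodite to male ratio of 155 with a 95% exact binomial interval of 42.3 to 1286 that covers counting error only. K07E3.9 had 0.0870, 0.0745, 0, 0 and 0 CPM in males and 0.209, 27.6, 5.50, 0.125 and 0.0676 CPM in hermaphrodites, a burst at 36 to 40 h. Its 3 male and 294 hermaphrodite reads gave a ratio of 141 (47.8 to 688). No male library of either reached 1 CPM, so both passed the filter on low values through hermaphrodites alone and no test is given. C10A4.9 overlaps another protein-coding gene.

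Of the 1173 genes, 918 passed the filter of at least 1 CPM in at least 2 libraries and were tested, and 255 with 10 to 134 reads were not. Of the tested genes, 79 reached 1 CPM in male libraries alone and 59 in hermaphrodite libraries alone, so a difference in those was built into the filter. Over the 5 windows, with window as a block, 80 unnamed X-linked genes were higher in males (8.71% of 918) and 44 were lower (4.79%), at an adjusted p under 0.05 in edgeR's quasi-likelihood test. Of all 15924 genes tested, 15.3% were higher and 3.56% lower. Among unnamed genes of chromosomes II to V, 1048 of 4482 were higher (23.4%) and 131 lower (2.92%), and among named X-linked genes 87 of 1185 were higher (7.34%) and 43 lower (3.63%). The median log2 ratio was 0.48 over the 918 genes and 0.21 over all genes tested. Of the 780 tested genes that reached 1 CPM in libraries of both sexes, 49 were called higher in males and 23 lower. The same was not counted for other genes. These called genes still include C14F11.7 and ZK813.2, which met the 2-library filter through 1 sex. The counts depended on single pairs of libraries: 17 genes were called without the 42 to 46 h pair (10 higher in males), 10 without the 48 to 52 h pair (5 higher) and 69 without the 54 to 58 h pair (37 higher).

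Among genes that averaged 5 CPM or more and kept 1 direction at all 5 windows, the 8 largest called differences towards males were those of F07G6.8, C06E2.9, T10B10.9, K09C8.2, C33G3.5, F18E9.7, F19H6.5 and F56C3.8. F07G6.8 (X:1720042-1720459, minus strand) had 1.83, 7.60, 42.1, 48.4 and 91.3 CPM in males and 0, 0, 0, 0.0625 and 0.0676 CPM in hermaphrodites. Its male level was higher at each later window while the hermaphrodite libraries held 2 reads in all, for a male to hermaphrodite ratio of 984 (272 to 8132). C06E2.9 (X:8861258-8861705, plus strand) had 0.870, 5.48, 11.3, 29.7 and 36.5 CPM in males and 0.104, 0, 0, 0 and 0 CPM in hermaphrodites. The whole hermaphrodite signal was 1 read against 1223 in males, a ratio of 849 (152 to 33574). F18E9.7 (X:8595152-8597747, minus strand) had 1.91, 15.8, 112, 192 and 251 CPM in males and 0.313, 0.343, 0, 0.313 and 0.270 CPM in hermaphrodites, the highest male level of the 8. No hermaphrodite library of any of the 8 reached 1 CPM (at most 0.835 CPM, in F56C3.8), so they passed the filter on low values through males alone, a difference was built in, and their calls are given as a description without p. Without the 48 to 52 h pair, C06E2.9, K09C8.2, C33G3.5, F18E9.7 and F56C3.8 were no longer called, and without the 42 to 46 h pair F18E9.7 and F56C3.8 were not.

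F19H6.5 stood apart from the other 7 in its time course. It had 9.22, 18.4, 33.0, 31.6 and 21.7 CPM in males and 0, 0, 0.572, 0.188 and 0 CPM in hermaphrodites. It was the only one of the 8 whose male level at 54 to 58 h lay under that at 42 to 46 h. T10B10.9, K09C8.2, C33G3.5 and F56C3.8 ranged between 6.35 and 8.70 CPM in the youngest males and between 50.4 and 124 CPM in the oldest, with at most 0.835 CPM in any hermaphrodite library. For these 4 and the 4 above, no male library overlapped the hermaphrodite libraries. That held for 72 of the 918 tested genes in this direction (7.84%), where 13.3% of all genes tested had every male library above every hermaphrodite one. T10B10.9, K09C8.2 and C33G3.5 overlap another protein-coding gene, and their reads may not be separated from it.

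**Figure D4:**
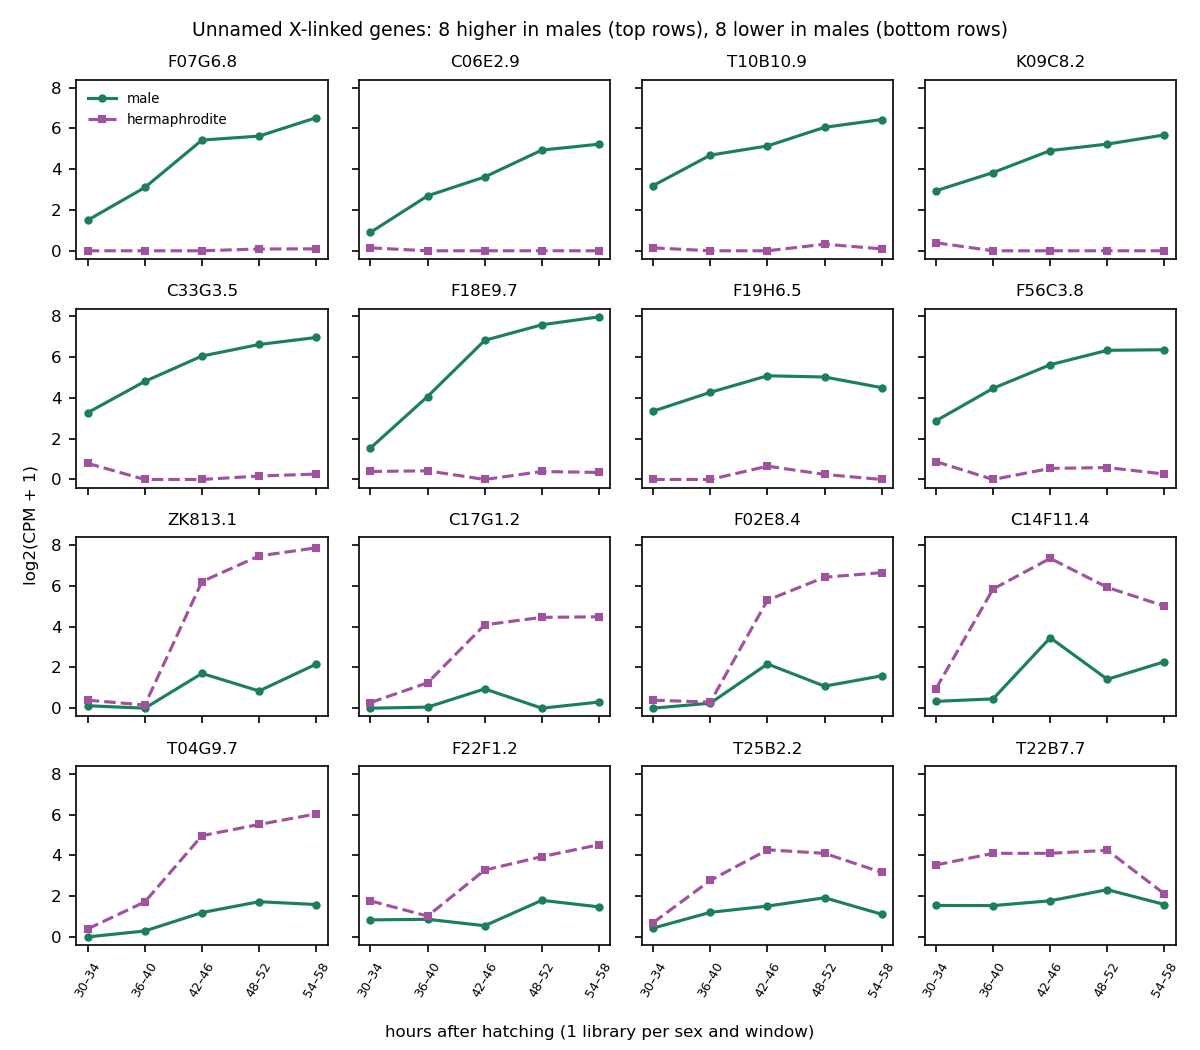
Level as log2(CPM + 1) against hours after hatching for the 16 unnamed X-linked genes with the largest called sex differences, 1 library per point. In the upper 8 panels male values lie above hermaphrodite values at each window, and in the lower 8 hermaphrodite values lie above male ones, with gaps that open at 42 to 46 h in ZK813.1 and F02E8.4 and at 36 to 40 h in C14F11.4.

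Of the 44 genes called lower in males, 28 had their highest hermaphrodite level in young adults. The same was not counted for other genes, so it is not read as a trait of the X chromosome. ZK813.1 (X:3446311-3446935, plus strand) had 0.0870, 0, 2.26, 0.796 and 3.47 CPM in males and 0.313, 0.114, 73.0, 176 and 233 CPM in hermaphrodites. Before 42 h no library held more than 3 reads, and afterwards the hermaphrodite libraries were far above the male ones (log2 -5.91 ± 0.74, edgeR adjusted p = 0.0071). F02E8.4 had 0, 0.186, 3.50, 1.11 and 2.01 CPM in males and 0.313, 0.229, 38.4, 85.0 and 99.3 CPM in hermaphrodites. C17G1.2 had 0, 0.0372, 0.925, 0 and 0.232 CPM in males and 0.209, 1.37, 16.0, 20.9 and 21.4 CPM in hermaphrodites. Both were low in each sex at 30 to 34 h and far higher in hermaphrodites from 42 to 46 h on, with a log2 ratio of -4.37 ± 0.92 for F02E8.4 (edgeR adjusted p = 0.0277). No male library of C17G1.2 reached 1 CPM, so its difference was built into the filter and no test is given.

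C14F11.4 (X:6230906-6233048, minus strand) followed a different course. It had 0.261, 0.372, 9.97, 1.67 and 3.86 CPM in males and 0.939, 56.6, 162, 59.7 and 31.2 CPM in hermaphrodites. Its hermaphrodite level was already high in early L4, peaked in late L4 and was lower in adults (log2 -4.36 ± 0.77, edgeR adjusted p = 0.0207). T22B7.7 was higher in hermaphrodites from late L3 on, with 1.91, 1.90, 2.42, 3.98 and 2.01 CPM in males and 10.5, 16.1, 16.1, 18.0 and 3.31 CPM in hermaphrodites (log2 -2.26 ± 0.46, edgeR adjusted p = 0.0266). At 54 to 58 h its hermaphrodite value lay within the range of the male libraries. T04G9.7, F22F1.2 and T25B2.2 completed the 8 named by the same rule as above, with log2 ratios of -4.36, -2.52 and -2.42. Without the 42 to 46 h pair or without the 48 to 52 h pair, F02E8.4, C14F11.4, T22B7.7, F22F1.2 and T25B2.2 were no longer called, and T22B7.7 and F22F1.2 were not without the 30 to 34 h pair or, for F22F1.2, the 54 to 58 h pair. Of the 44 genes called lower, 24 kept this direction at all 5 windows, where 480 of 567 called lower among all genes tested did. Of the 80 called higher, 74 kept theirs, where 2331 of 2436 among all genes tested did. Of the 918 tested genes, 12 had every male library under every hermaphrodite one (1.31%, where 4.86% of all genes tested did).

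In male libraries, several genes that were high in hermaphrodites had their highest values at 42 to 46 h and 54 to 58 h, the windows at which the summed yolk markers were highest in males. This held for F02E8.4, and for the 3 ZK813 and the 3 Y62H9A genes given next. The part of these markers in the results was not tested.

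The longest stretches of adjacent unnamed X-linked genes called in the same direction were 2 groups of 3, both lower in males and with no other protein-coding gene between them. ZK813.2, ZK813.7 and ZK813.1 span X:3443826-3446935. ZK813.7 had 0, 0, 4.47, 1.27 and 3.55 CPM in males and 0.104, 0, 100.3, 186 and 219 CPM in hermaphrodites, and ZK813.2 had at most 1.34 CPM in males and 51.6 CPM in hermaphrodites. No male library of ZK813.2 other than that of 42 to 46 h reached 1 CPM, so it passed the filter on low values through hermaphrodites. Their neighbour ZK813.3 had 0.522, 0, 4.16, 0 and 1.23 CPM in males and 0, 0.343, 71.1, 165 and 196 CPM in hermaphrodites, but was not called over the 5 windows (edgeR adjusted p = 0.0777). The other stretch, Y62H9A.3, Y62H9A.4 and Y62H9A.5, spans X:11879110-11882900. Y62H9A.5, which the RefSeq table calls stha-3, had 0.174, 0, 5.40, 0.159 and 3.63 CPM in males and 0.104, 0.457, 83.1, 166 and 179 CPM in hermaphrodites. All 3 were near 0 in both sexes at the first pair of windows and at 83.1 CPM or less in hermaphrodites of 42 to 46 h, higher in adults. Their log2 ratios were -5.63 ± 1.09, -6.09 ± 1.39 and -5.38 ± 1.24 in the order of position (edgeR adjusted p = 0.0245, 0.0332 and 0.0308). These 3 and ZK813.2 were not called once the 42 to 46 h or the 48 to 52 h libraries were removed, nor ZK813.2 without those of 30 to 34 h, whereas ZK813.1 and ZK813.7 stayed called. In young adults all 7 genes were called, also with each of the 4 libraries left out in turn. Genes called higher in males formed 5 pairs and no longer stretch, with 70 standing alone, and those called lower formed 4 pairs and 30 alone. Among 6 equal parts of the chromosome from left to right, genes called higher in males numbered 17, 13, 15, 14, 14 and 7, and genes called lower 4, 7, 10, 3, 12 and 8, of 144, 144, 179, 163, 164 and 124 tested.

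In young adults alone, with 2 libraries per sex, 260 unnamed X-linked genes were higher in males (28.3% of 918) and 144 lower (15.7%) in edgeR's quasi-likelihood test, where 32.7% and 29.3% of all genes tested were called. Among unnamed genes of chromosomes II to V, 1903 were higher (42.5%) and 1004 lower (22.4%). The median log2 ratio was 0.69 over the 918 genes, 1.16 over those of chromosomes II to V and 0.32 over all genes tested. The genes called lower in males differed by a median of -3.07, against -1.52 for those of chromosomes II to V. Among named X-linked genes 31.3% were higher and 14.6% lower, with a median of -1.96 for those called lower. These medians cover only differences large enough to be called, and the groups differ in level. Without the male library of 48 to 52 h, 213 genes were called (111 higher), and without that of 54 to 58 h, 223 (118 higher), where the lone male sample was assumed to vary like the hermaphrodite ones.

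A few genes had reads in 1 sex alone. No hermaphrodite read was found for 39 of the 1173 genes (3.32%), 7 of which had at least 100 male reads, and no male read for 15 (1.28%), 1 of which had at least 100 hermaphrodite reads. In chromosomes II to V these shares were 2.69% and 0.752% of unnamed genes. K09C4.4 (X:3289483-3292477, plus strand) had the most male reads of these, with 0, 0.708, 0.977, 10.2 and 11.1 CPM in males and 0 in each hermaphrodite library. Its male level was nearly confined to young adults, and its 310 reads over the 5 male libraries put it at least 71.8-fold higher in males than 3 reads over the 5 hermaphrodite libraries would be. C08A9.10 (X:17081179-17082042, plus strand) was its mirror, with 0 in each male library and 0, 0, 9.50, 12.8 and 10.2 CPM in hermaphrodites, at least 210.2-fold lower in males by the same floor. Both were picked for having reads in 1 sex and are given without a test. Of genes with reads in both sexes, F23D12.2 had 0 and 0.0772 CPM in young adult males and 13.9 and 18.8 CPM in young adult hermaphrodites, and K09E3.7 had 0 and 0.0772 CPM in males and 10.9 and 11.9 CPM in hermaphrodites.

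Most changes called over time were in hermaphrodites, and most of those were falls. The slope per 6 h step was called rising for 53 and falling for 216 of the 918 genes in hermaphrodites (edgeR's quasi-likelihood test), where 20.9% of all genes tested rose and 16.9% fell. As shares these were 5.77% and 23.5%, against 16.6% rising and 14.5% falling among unnamed genes of chromosomes II to V. Named X-linked genes had 3.71% rising and 33.2% falling, so the excess of falls was not particular to unnamed genes. In males 1 gene was called rising and 2 falling, where 0.276% and 0.314% of all genes were called, and at an unadjusted p under 0.05 there were 41 and 178. The median slope was -0.15 in males and -0.35 in hermaphrodites on the log2 scale, beside -0.01 and -0.15 over all genes tested. Leaving out the 48 to 52 h pair left 79 hermaphrodite slopes called, and leaving out the 54 to 58 h pair left 51. Leaving out the pair of 36 to 40 h, of 48 to 52 h or of 54 to 58 h left no male slope, whereas DESeq2 called 134.

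The male slope called rising was that of F07G6.8 (log2 1.37 ± 0.23 per step, edgeR adjusted p = 0.046), described above. Those called falling were F09B12.3 and F53B3.6. F09B12.3 (X:15095343-15097954, minus strand) had 252, 161, 98.4, 85.4 and 51.8 CPM in males and 497, 332, 164, 61.9 and 44.5 CPM in hermaphrodites. It was lower at each later window in both sexes, with slopes of -0.55 ± 0.07 in males and -0.94 ± 0.07 in hermaphrodites (edgeR adjusted p = 0.0322 and 0.00129). F53B3.6 was also lower at each later window in both sexes, with 93.7, 75.6, 33.5, 25.8 and 14.3 CPM in males and 96.9, 76.4, 17.1, 10.5 and 5.81 CPM in hermaphrodites. Among the steepest falls in hermaphrodites were C05G5.7, E01G6.1, ZK662.2 and ZC449.1, with their highest hermaphrodite level at 30 to 34 h or 36 to 40 h and at most 0.0676 CPM in hermaphrodites at 54 to 58 h. E01G6.1 had 18.9, 33.7, 7.92, 1.03 and 0.0772 CPM in males and 39.2, 31.2, 4.69, 0 and 0.0676 CPM in hermaphrodites. Its male level was higher in early L4 than in late L3, unlike the hermaphrodite one, and was lower at each window after that. The male slope was -2.01 ± 0.59 against -2.67 ± 0.60 in hermaphrodites, not called in males (edgeR adjusted p = 0.128) and called in hermaphrodites (0.00993). The steepest called rises in hermaphrodites, among genes that averaged 5 CPM or more, were ZK813.1, R04D3.3, R04D3.2 and H29C22.1. Some steeper fitted rises were not called, such as that of ZK813.3 (log2 2.82 per step, edgeR adjusted p = 0.0689). R04D3.3 had 0.435, 0, 0.771, 0 and 1.47 CPM in males and 0.104, 0, 23.4, 83.6 and 90.2 CPM in hermaphrodites, and R04D3.2 reached 1.70 CPM in males and 53.2 CPM in hermaphrodites. No male library of R04D3.3 or R04D3.2 other than that of 54 to 58 h reached 1 CPM. Both thus passed the filter on low values through the later hermaphrodite libraries, and their called rises are a description. Each male library of the 4 genes with called rises held 3.47 CPM or less. The rises of ZK813.1, R04D3.3 and H29C22.1 were no longer called without the 30 to 34 h pair or without the 54 to 58 h pair, and those of ZK813.1 and R04D3.3 also not without the pair of 36 to 40 h or of 48 to 52 h. The fall of E01G6.1 was not called without the 54 to 58 h pair, and those of C05G5.7, ZK662.2 and ZC449.1 were not without that pair or the one before it, nor without the 36 to 40 h pair for ZK662.2 and the 42 to 46 h pair for the other two. By limma-voom, the hermaphrodite slopes of C05G5.7 (adjusted p = 0.0868), ZK662.2 (0.0892), ZC449.1 (0.201) and R04D3.3 (0.0818) were not called either. The male slope of F53B3.6 was not called with RLE factors (edgeR adjusted p = 0.0541) or without ribosomal RNA and mitochondrial genes (0.0501). The male slopes of F09B12.3 and F53B3.6 were not called with any pair left out, and that of F07G6.8 was still called only when the pair left out was that of 42 to 46 h.

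A test of the sex by time term asked whether slopes differed between the sexes, and it called 42 unnamed X-linked genes as more upward in males and 17 as more downward, where 5.6% and 10.2% of all genes tested were called. Unnamed genes of chromosomes II to V had 269 (6.00%) and 266 (5.93%), and the shares of unnamed X-linked genes were 4.58% and 1.85%. Named X-linked genes had 5.99% and 3.12%. The split depended on the scaling, with 36 and 2 called under library size only. It also depended on each later pair of libraries: no gene was called without the 36 to 40 h, 42 to 46 h, 48 to 52 h or 54 to 58 h pair, and 29 were without the 30 to 34 h pair. At an unadjusted p under 0.05 there were 137 and 72. Among called genes that averaged 5 CPM or more, the largest differences were those of C14F11.7, more upward in males, and R09F10.8, more downward. Some larger fitted differences were not called, such as 2.80 in C06E2.9 and -2.37 in H29C22.1. C14F11.7 (X:6208160-6208563, minus strand) had 1.74, 11.1, 56.3, 104 and 111 CPM in males and 0.313, 2.06, 0, 0.313 and 0.135 CPM in hermaphrodites (difference of slopes 2.21 ± 0.54). No hermaphrodite library of C14F11.7 other than that of 36 to 40 h reached 1 CPM. It thus passed the filter on low values through males, and its call is given as a description without p. R09F10.8, which overlaps another protein-coding gene, had 0.435, 0.372, 2.11, 0.318 and 1.54 CPM in males and 0.522, 0.457, 35.2, 94.0 and 103.9 CPM in hermaphrodites (-1.81 ± 0.47, edgeR adjusted p = 0.0493). In late L3 the male level of C14F11.7 was already higher, on 20 male and 3 hermaphrodite reads, whereas the sexes were close in R09F10.8. In young adults the sexes were far apart in both genes. C39D10.7 had 3.30, 5.07, 14.7, 6.45 and 20.1 CPM in males and 2.30, 11.7, 300.4, 662 and 817 CPM in hermaphrodites (-1.68 ± 0.36, edgeR adjusted p = 0.0343). Its male and hermaphrodite levels were also close in late L3, and in young adults the hermaphrodite level was far above the male one. With library size only, none of these 3 differences was called (edgeR adjusted p = 0.0686 for R09F10.8 and 0.0526 for C39D10.7).

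What the called genes resemble was read from the Pearson correlation of log2(CPM + 1) over the 10 libraries with the mean profile of marker lists, counted at an r of at least 0.9 among genes with at least 5 CPM in 1 library. The points share libraries and the lists resemble each other (r = 0.90 between sperm and male sensory neurons, 0.98 between oocyte and the germline of both sexes), so these counts describe profiles and name no cell type. Sperm-like profiles were few on the X chromosome: 11 of 666 unnamed X-linked genes (1.65%) against 733 of 3610 unnamed genes of chromosomes II to V (20.3%) and 5 of 988 named X-linked genes (0.506%). At an r of at least 0.8, a limit chosen after seeing the data, there were 30 X-linked and 973 others. Profiles like male sensory neurons were found for 26 (3.90%) against 399 (11.1%), and like oocytes for 48 (7.21%) against 360 (9.97%). In the other direction, 43 unnamed X-linked genes (6.46%) resembled epidermis and cuticle markers, against 120 (3.32%) on chromosomes II to V. Any of the 9 lists was matched by 148 X-linked genes (22.2%) and 1597 others (44.2%).

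**Figure D5:**
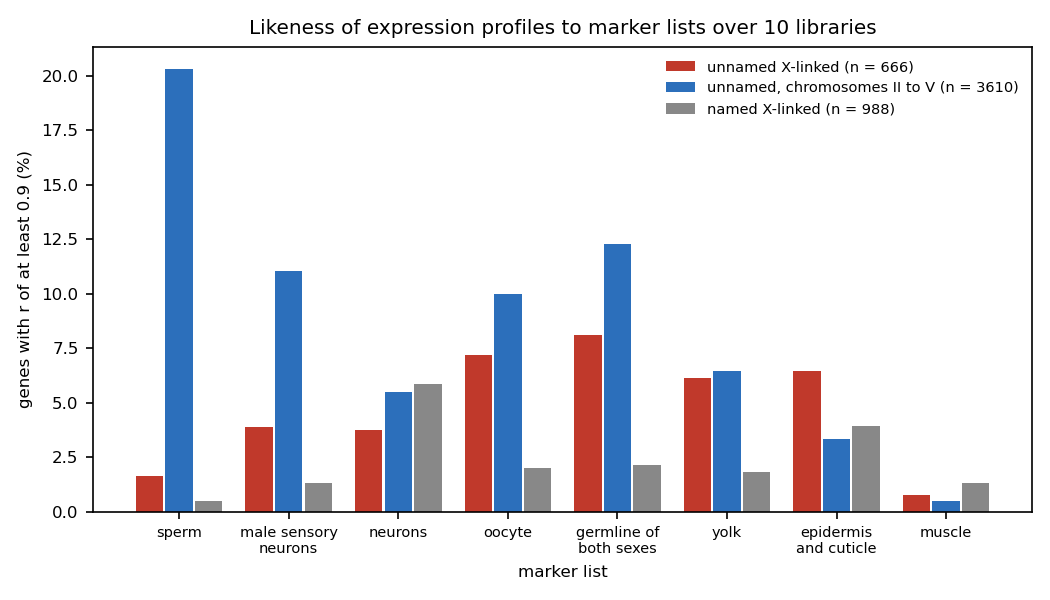
Share of genes (%, vertical axis) whose level profile over the 10 libraries correlates at r of at least 0.9 with the mean profile of each marker list, for 666 unnamed X-linked, 3610 unnamed chromosome II to V and 988 named X-linked genes with at least 5 CPM in 1 library. Intestine, with 0 in each group, is not drawn, and a gene can count under several lists: the widest gap is for sperm, 1.65% of unnamed X-linked against 20.3% of unnamed genes of chromosomes II to V.

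Among the genes called higher in males that had such a profile, 24 of 65 on the X chromosome (36.9%) resembled male sensory neuron markers, 11 (16.9%) neuron markers and 10 (15.4%) sperm markers. On chromosomes II to V, 646 of 974 (66.3%) resembled sperm markers and 378 (38.8%) male sensory neuron markers. The 8 genes listed above as largest towards males were all nearest to the male sensory neuron profile, with r from 0.96 for F19H6.5 to 0.98 for F56C3.8. These 8, like all called genes counted here, were chosen for a sex difference. The marker profiles carry sex differences too, so likeness to a list of the same direction was partly built in. Of 39 X-linked genes called lower in males, 25 (64.1%) resembled the germline of both sexes, 22 (56.4%) oocytes and 22 (56.4%) yolk, and of 129 on chromosomes II to V, 72 (55.8%) resembled the germline of both sexes and 54 (41.9%) oocytes. C39D10.7 was the closest to the oocyte profile among the genes named here (r = 0.99).

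The genes known to set X chromosome activity were read as background. All 10 listed genes of the dosage compensation complex and its partners had a lower fitted level in males over the 5 windows (median log2 -0.45), but sdc-3 alone was called. In young adults all 10 were called lower (median log2 -1.10), and 6 were with library size only. In that young adult test, which also gave the counts of the lists below, 29.3% of all genes tested were called lower in males. Among named genes of chromosomes II to V the share was 37.2%. sdc-2, whose protein brings the complex to the X chromosomes of hermaphrodites, had 55.3, 35.4, 30.3, 26.7 and 24.8 CPM in males and 70.0, 50.2, 44.3, 43.6 and 49.9 CPM in hermaphrodites. The male values were lower at each later window and lay under the hermaphrodite value at each window. Of 4 X-linked genes that count X chromosomes or respond to them, sex-1, fox-1 and ceh-39 were called lower in young adult males and xol-1 was not. All 8 genes of germline X silencing and pairing were called lower in young adult males (median log2 -1.85), and none over the 5 windows with edgeR, against 5 with DESeq2. Of 8 markers of the germline of both sexes, 7 were also called lower in young adult males, and their sum was 455 and 395 CPM in young adult males and 2021 and 2182 CPM in young adult hermaphrodites. Their part in these results was not tested.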

How the data were processed

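RNA-seq read counts per gene, whole numbers made by the authors, were deposited for 10 him-5 libraries. CASAVA 1.8 and HTSeq are named per the submitters' processing notes; no aligner, build, HTSeq version or strand setting is given in the sources used here, so overlapping and antisense genes cannot be told apart. Of 46589 sequence names, 46176 matched 1 gene of the Ensembl annotation of WBcel235, 410 were not found and 3 matched several genes. The 5 totals that name no gene were left out (no feature 2.18 to 3.98%, ambiguous 0.321 to 0.745%, not aligned 3.31 to 25.4% and not unique 11.2 to 17.8% of reads, relative to all reads), so reads from near-identical copies went to no gene.

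Genes were chosen, and marker lists written, with earlier results of these data known. CPM were scaled by TMM, and per-length values divide by exon length. Counts were fitted over all 15924 genes that reached 1 CPM in 2 or more of the 10 libraries by edgeR 4.0.16 in R 4.3.3 with limma 3.58.1 (quasi-likelihood test, Benjamini-Hochberg adjusted p under 0.05). The sex difference over the 5 windows had window as a block (4 residual degrees of freedom), slopes were fitted on 5 windows per sex, in steps of 6 h, over all 10 libraries (6), their difference with window as a block (3), and young adults without a block on 4 libraries (2). The block pairs libraries of the same window, per the labels; nothing else ties a male to a hermaphrodite library. The labels do not say whether cultures were separate, and the spread behind each p may be technical. Standard errors are the fitted log2 value over the root of F and are approximate. Intervals are 95% exact binomial, folds against 0 reads use 3 reads over the group's libraries, and both cover counting error only. Fits were tested on simulated data. RNA depth per library was 8189325 to 27907544 gene reads.

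Named genes were: the 8 largest called differences each way over 5 windows (mean of at least 5 CPM, 1 direction); the 5 highest per kb; the 2 highest and 2 lowest ratios per window where the higher library had 5 CPM or more; the 4 largest called slopes, slope differences and young adult differences each way (mean of at least 5 CPM); the longest stretches of adjacent called genes; the genes at 10 and 9 reads. K09C4.4 and C08A9.10 also lead the genes read in 1 sex. Alternatives were RLE factors, library size only, other filters, added CPM, read minimums and thresholds, DESeq2 1.42.0, limma-voom, overlapping genes or ribosomal RNA and mitochondrial genes left out, no block, and each pair or library left out. Promoter motifs and sequences were not analysed here.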

Additional observations from a re-analysis of the deposited data

Results flagged for a closer look

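The fitted slopes of 10 genes named in the report differed between males and hermaphrodites by the test of the sex by time term (edgeR's quasi-likelihood test). The differences, male minus hermaphrodite on the log2 scale per 6 h step, were 2.21 for C14F11.7, 1.17 for F13C5.5, 1.09 for F41B4.2, 1.08 for F53A9.8 and 0.37 for F46H5.3. They were -1.81 for R09F10.8, -1.68 for C39D10.7, -1.57 for F19H6.4, -1.003 for F31A3.5 and -0.45 for F23A7.4. C14F11.7 passed the filter on low values through males, so its value is a description.

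F41B4.2, which the RefSeq table calls nssp-79, had 8.44, 8.27, 6.58, 12.6 and 11.6 CPM in males and 6.68, 3.54, 2.18, 1.19 and 0.405 CPM in hermaphrodites. F53A9.8 had 57.2, 51.0, 22.1, 56.4 and 102 CPM in males and 36.8, 24.2, 13.9, 4.50 and 3.72 CPM in hermaphrodites. In both genes the hermaphrodite level was lower at each later window, while the male level was lowest in late L4 and higher again in young adults. F13C5.5, which overlaps another protein-coding gene, had 4.83 to 10.7 CPM in males and 16.8, 8.35, 4.12, 1.81 and 0.743 CPM in hermaphrodites, so the direction of its sex difference turned between late L3 and late L4. F19H6.4, srdf-2.1 in the RefSeq table, had 3.57, 5.14, 5.81, 6.76 and 7.72 CPM in males and 0.104, 1.83, 11.6, 32.9 and 35.1 CPM in hermaphrodites, turning the other way. With library size only, 6 of the 8 named by slope difference were not called. None of the 10 was called without the pair of libraries of 36 to 40 h, 42 to 46 h, 48 to 52 h or 54 to 58 h.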

How the results depend on the processing

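No total or median below reversed, but with library size only more unnamed X-linked genes were 4-fold higher than lower in young adult males (67 and 58, then 95 and 60), where TMM gave 57 and 66, then 60 and 74. Over the 5 windows 124 unnamed X-linked genes were called, and 10 to 119 with a pair of libraries left out, 36 with at least 5 CPM in 5 libraries, 282 by DESeq2, 224 by limma-voom, 11 at an adjusted p of 0.01 and 148 (84 higher and 64 lower in males) with no replicate block. In young adults 404 were called, 213 to 402 without 1 library in turn, 204 at an adjusted p of 0.01 and 309 (188 and 121) with window as a replicate block. Male slopes numbered 3, 0 to 6 with a pair left out, 134 by DESeq2, 38 by limma-voom and 0 at an adjusted p of 0.01. Hermaphrodite slopes numbered 269, 72 at an adjusted p of 0.01 and 51 to 217 with a pair left out. Slope differences numbered 59, 0 to 29 with a pair left out, 38 with library size only, 34 with no filter, 99 with at least 5 CPM in 5 libraries, 182 by DESeq2, 115 by limma-voom and 0 at an adjusted p of 0.01. The 4-fold counts of 21, 43, 82, 123 and 134 became 8, 13, 31, 53 and 55 with 5 CPM added and 91, 141, 195, 268 and 286 at 2-fold, and 12 at 30 to 34 h without overlapping genes. The median log2 ratio became 0.62, 0.31, 0.45 and 0.61 with 0.1 CPM added and 0.10, 0.085, 0.071 and 0.074 with 5 CPM added at 36 to 40 h and the 3 later windows. It became 0.072 and 0.17 with at least 1 read at 42 to 46 h and 54 to 58 h, and 0.36, 0.36 and 0.42 with at least 100 reads at the last 3 windows. It became 0.15, 0.30 and 0.34 with a mean of at least 5 CPM at 36 to 40 h, 42 to 46 h and 48 to 52 h, and 0.33 and 0.42 with library size only in young adults. Sperm-like profiles numbered 30 at an r of at least 0.8, added after seeing the data. The strict filter tests fewer genes and a pair left out leaves fewer samples; for the others the cause was not tested. Depth limits the 255 genes too low to test.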
